A study of Mus musculus with 12 samples.

Results

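RNA of hepatocytes from mice with a hepatic knockout of Rxra given bexarotene was compared with that of floxed mice given the same drug, to see which genes depend on RXRα while the receptor's ligand is present. The comparison uses 6 of the 12 libraries of the study, chosen by the 2 groups their table columns name. The treated knockout group (libraries 1, 2 and 3) and the treated floxed group (libraries 1, 3 and 4) both received bexarotene at 100 mg/kg once a day for 5 days. The other 6 libraries are knockout controls (1, 2 and 5) and floxed controls (1, 3 and 4), without the drug. All animals were male C57bl/6, and floxed mice carry Rxra flanked by recombination sites with the gene intact. The labels give neither what the controls received nor the promoter that drives recombination. Nothing in the labels ties the libraries of a group to separate animals, so the p-values reflect spread among libraries that could be technical.

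Retinoid X receptors (RXRs) are nuclear receptors that bind DNA in pairs with another receptor. In hepatocytes RXRα is the most abundant RXR, and its partners include PPARα, which switches on fatty acid oxidation, LXR and FXR, which sense sterols and bile acids, CAR and PXR, which sense drugs, and the thyroid hormone and retinoic acid receptors. Bexarotene binds RXRs directly, and pairs such as PPARα with RXR can be activated from the RXR side alone.

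Values are TPM, a level per transcript length that is scaled to the same total in every library, and sequencing depth cannot be read from them. The 3 treated knockout libraries were close to identical. Their pairs differed by 3.34% to 5.79% beyond counting noise, and floxed controls 1 and 3 by 4.04%, against 11.5% to 39.7% for the other pairs. Such libraries were averaged and counted as 1 sample, which leaves 1 treated knockout, 3 treated floxed, 3 knockout control and 2 floxed control samples. The treated knockout has therefore no spread of its own, and the tests lend it that of the other groups. Rxra stood at 27.8, 26.1 and 26.4 TPM in the treated knockout libraries, against 82.2, 85.3 and 79.6 TPM in the treated floxed libraries. The difference was -1.58 ± 0.16 as a log2 fold change with SE (limma, Benjamini-Hochberg adjusted p = 0.00247). The libraries thus follow their labels for the targeted gene, although a total over all exons cannot tell deleted from intact transcripts. Rxrb ranged over 12.32 to 13.98 TPM, against 12.65 to 13.17 TPM, and Rxrg stood at 0.80, 1.30 and 0.87 TPM, against 1.19, 1.37 and 1.55 TPM. The levels of these other RXR genes overlapped between the groups.

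Markers of other liver cells differed between libraries. The summed level of 12 macrophage markers ranged over 73.0 to 83.2 TPM in the treated knockout libraries and was 20.5, 24.2 and 73.7 TPM in treated floxed 1, 3 and 4. All 10 tested members were higher in the treated knockout and 0 were called, against 1.93% of all tested genes. None had an unadjusted p under 0.05, and treated floxed 4 lay at the level of the knockout libraries. The sum of 5 erythroid markers ranged over 647 to 743 TPM against 237 to 626 TPM, that of 12 endothelial markers over 23.1 to 28.0 TPM against 13.8 to 22.0 TPM, and that of 7 stellate cell markers over 4.67 to 5.65 TPM against 1.85 to 2.87 TPM. The sum of 8 cholangiocyte markers was lower, at 4.72 to 5.35 TPM against 11.4 to 15.3 TPM. Within it Krt23, a keratin also made by stressed hepatocytes, fell by 1.65 ± 0.29 (adjusted p = 0.0288), a call lost without floxed control 4 or treated floxed 1 (adjusted p up to 0.0825). The 8 hepatocyte markers summed to 64414 to 66599 TPM against 55552 to 59231 TPM. No marker of any of these lists was at 0 in all 6 libraries. However, 6 of the 8 cholangiocyte and 4 of the 7 stellate cell markers were under 1 TPM in all 6. The part of other cells in the results was not tested, and in bulk samples fewer cells of a type cannot be told apart from less RNA per cell.

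Between treated knockout and treated floxed hepatocytes 213 of 11018 tested genes changed at an adjusted p under 0.05 (1.93%). Of these, 75 were higher (0.681%) and 138 lower (1.25%). Libraries of the groups did not overlap for 23.2% of tested genes in the higher direction and 19.2% in the lower, so non-overlap alone is common here. As the treated knockout libraries are near-identical, non-overlap in effect sets 1 sample outside the range of 3. The number of calls rests on a few libraries. It was 103 without treated floxed 1, 122 without treated floxed 3, 190 without treated floxed 4 and 435 without knockout control 5. Of the 213 genes, 23 have no name or a predicted one.

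Among the 12 named genes with the largest falls, Mup17, Mup19 and Mup15 encode major urinary proteins, pheromone-binding proteins that the male liver secretes. Mup19 stood at 79.7, 78.7 and 68.0 TPM in the treated knockout libraries, against 11570, 10910 and 3905 TPM in the treated floxed libraries. Cyp4a12b and Cyp4a14 encode fatty acid omega-hydroxylases, and Acaa1b a thiolase of peroxisomal fatty acid oxidation. Cyp4a12b stood at 10.5, 10.5 and 11.7 TPM, against 180.7, 196.4 and 242.0 TPM, and fell by 4.12 ± 0.19 (adjusted p = 1.77e-04), the smallest adjusted p of the named genes. Mfsd2a, a transporter of lysophospholipids that carry polyunsaturated fatty acids, stood at 3.33, 3.09 and 3.37 TPM, against 58.5, 55.3 and 69.4 TPM (-3.86 ± 0.21, adjusted p = 3.59e-04). In both genes every treated knockout library lay below every treated floxed library. The fall of Hspb1, a small heat shock protein, was a weaker call (-3.55 ± 0.56, adjusted p = 0.0180) and was lost without treated floxed 1 or 3 (adjusted p up to 0.0577).

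Among the largest rises, Apoa4, an apolipoprotein of triglyceride-rich particles, stood at 1470, 1418 and 1522 TPM in the treated knockout libraries, against 61.8, 64.6 and 145.8 TPM in the treated floxed libraries (4.12 ± 0.43, adjusted p = 0.00298). Tff3, a trefoil peptide best known from mucosal repair, stood at 67.1, 68.2 and 65.5 TPM, against 3.48, 4.42 and 5.66 TPM (3.64 ± 0.44, adjusted p = 0.00568). Both genes were also higher in knockout controls than in floxed controls. Mgst2, a microsomal glutathione transferase, was at 4.90, 6.46 and 7.63 TPM and is listed at 0 in the 3 treated floxed libraries, so no fold is given. The metal-binding protein Mt1 had the largest fitted rise of the named genes called, at 2615, 2442 and 2657 TPM against 99.0, 87.3 and 29.0 TPM (5.32 ± 1.06, adjusted p = 0.0488). Its call was lost on leaving out any of 6 single libraries, namely floxed control 4, treated floxed 1, 3 or 4 and knockout control 1 or 2 (adjusted p up to 0.106). Mt2 had values of the same order, 2768, 2774 and 2798 TPM against 83.6, 75.1 and 20.3 TPM, and missed the threshold (adjusted p = 0.128). Mt2 was chosen after its values were seen. Camk1d, a calcium-dependent kinase, was called at 2.70 ± 0.52 (adjusted p = 0.0424) and lost that call without any 1 of 6 libraries, namely floxed control 4, treated floxed 1, 3 or 4, knockout control 2 and treated knockout 1 (adjusted p up to 0.132).

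**Figure D1:**
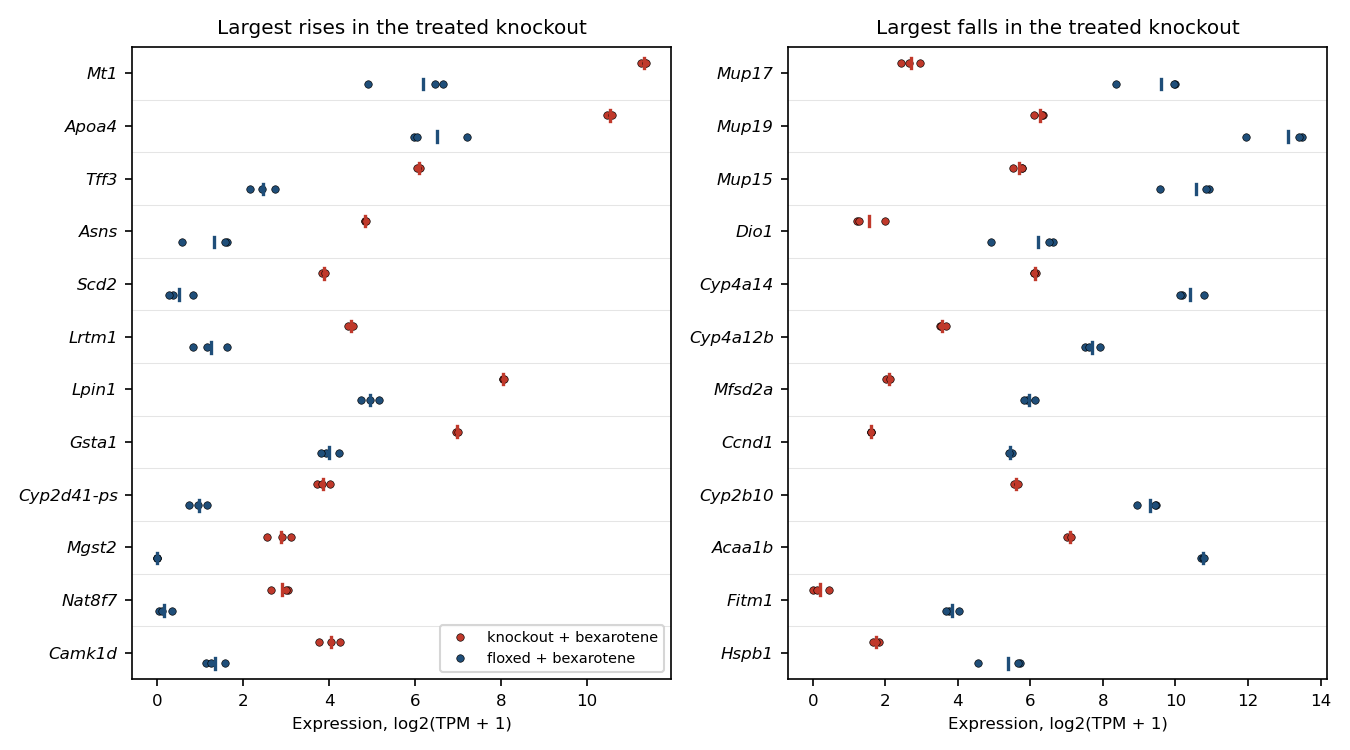
Expression as log2(TPM + 1) of the 12 named genes with the largest rises (left panel) and the 12 with the largest falls (right panel), with 1 point per treated library and a bar at the log2 of the group's mean TPM + 1. The treated knockout libraries lie close together on most lines, less so for Dio1 (1.32, 2.96 and 1.44 TPM). Treated floxed 4 stands apart from treated floxed 1 and 3 for Mup17, Mup19, Mup15, Dio1, Mt1, Hspb1 and Apoa4, among others.

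The same contrast of genotypes without the drug, whose fold changes come from the other 6 libraries, called 414 genes (3.76%), 202 higher (1.83%) and 212 lower (1.92%). Both contrasts come from 1 fit with a shared estimate of the spread, so their calls are not independent. The 414 became 101 without floxed control 4 and 761 without knockout control 5. Of the 213 genes changed with bexarotene, 112 were called there as well, which is 52.6% of these genes and 27.1% of those called without the drug. All 112 had the same direction in both. In all, 191 of the 213 (89.7%) had the same sign without the drug. Over all tested genes the 2 sets of fold changes had a Pearson correlation of 0.365, a description across genes, which are not independent. For 16 of the 213 genes the difference between the 2 contrasts was itself called, and 22 genes were called for it over the whole table (0.2%), 6 without treated floxed 1 and 210 without knockout control 5. The exceptions among the named genes, such as Ccnd1, Ehhadh, Gsta1 and Lpin1, are given with their gene groups.

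**Figure D2:**
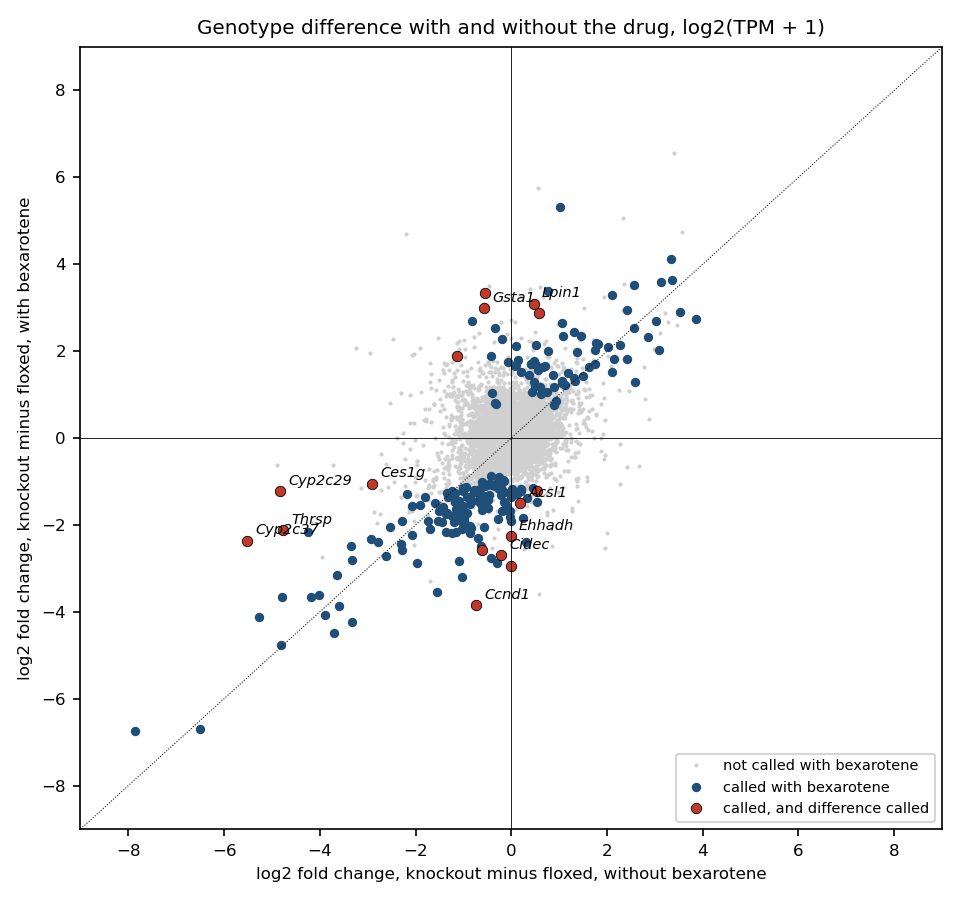
Genotype log2 fold change (knockout minus floxed, log2(TPM + 1)) of every tested gene with bexarotene on the vertical axis and without it on the horizontal axis, with called genes in blue and those whose difference between the contrasts was also called in red. Of the 213 called genes, 191 have the same sign on both axes, whereas Ehhadh, Cidec and Acsl1 differ with the drug at a value near 0 without it.

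Targets of PPARα were lower in the treated knockout. Of 49 tested members of 52 on the list, 19 fell and 0 rose, against 1.25% of all tested genes called lower. The median log2 fold change was -1.15, against 0.04 over all tested genes, and 44 of 49 were negative. For 42 members all 3 treated knockout libraries lay below all 3 treated floxed libraries, against 19.2% of tested genes, and 33 members fell and 0 rose at an unadjusted p under 0.05. The count of called members was 13 without treated floxed 1 or without treated floxed 3. Without the drug 11 members were called lower, against 1.92% of tested genes, and 0 higher, against 1.83%, with a median of -0.53.

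The members that fell cover the route of fatty acids from uptake to oxidation. Slc27a2, a fatty acid transporter and very long chain acyl-CoA synthetase, stood at 477.6, 469.3 and 482.1 TPM in the treated knockout libraries, against 1224, 1079 and 1306 TPM in the treated floxed libraries. Its call (-1.33 ± 0.19, adjusted p = 0.0116) was lost without treated floxed 1 (adjusted p = 0.0516). Acsl1, which activates long chain fatty acids to acyl-CoA, stood at 240.6, 241.6 and 233.7 TPM, against 677.7, 645.6 and 695.1 TPM (-1.49 ± 0.16, adjusted p = 0.00298). Without the drug Acsl1 was at 218.4 TPM in knockout controls and 191.5 TPM in floxed controls, and the genotype differences with and without bexarotene differed (adjusted p = 0.0228). The carnitine route into mitochondria fell at the plasma membrane carrier Slc22a5 (-1.86 ± 0.20, adjusted p = 0.00336) and at the mitochondrial carrier Slc25a20 (-1.43 ± 0.18, adjusted p = 0.00799). These genes were below the treated floxed range in every treated knockout library.

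Peroxisomal oxidation fell at several steps. Ehhadh, its bifunctional enzyme, stood at 365.2, 361.9 and 367.0 TPM in the treated knockout libraries, against 1837, 1652 and 1772 TPM in the treated floxed libraries (-2.26 ± 0.14, adjusted p = 5.30e-04). Ehhadh did not differ between the genotypes without the drug beyond the spread, at 93.7 TPM in knockout controls and 94.7 TPM in floxed controls, and the difference of the contrasts was called (adjusted p = 0.00508). The treated knockout level of Ehhadh thus lay above both control groups and below the treated floxed group. Acaa1b, the last step of the cycle, stood at 136.3, 127.4 and 139.4 TPM, against 1674, 1736 and 1754 TPM (-3.67 ± 0.37, adjusted p = 0.00247). Decr2, a peroxisomal reductase that handles unsaturated fatty acids, fell by 2.57 ± 0.21 (adjusted p = 9.80e-04). Eci1, a mitochondrial isomerase that handles them too, fell by 1.36 ± 0.14 (adjusted p = 0.00315).

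Microsomal and coenzyme A steps fell as well. Cyp4a14 stood at 70.2, 67.6 and 67.8 TPM in the treated knockout libraries, against 1153, 1117 and 1763 TPM in the treated floxed libraries (-4.24 ± 0.60, adjusted p = 0.0116). Aldh3a2, which oxidises fatty aldehydes, stood at 32.8, 31.3 and 30.1 TPM, against 172.1, 158.1 and 175.5 TPM (-2.39 ± 0.19, adjusted p = 9.80e-04). Vnn1, a pantetheinase of coenzyme A turnover, fell by 2.45 ± 0.23 (adjusted p = 0.00158), and the thioesterase Acot2, which frees fatty acids from acyl-CoA, fell by 2.48 ± 0.24 (adjusted p = 0.00200). Cyp4a10, with the same activity as Cyp4a14, had 288.4, 289.6 and 304.4 TPM against 1016, 1063 and 1405 TPM and missed the threshold (-1.96 ± 0.54, adjusted p = 0.143). The Cyp4a and Acot genes have near-identical copies, so the values of single members are uncertain. Slc22a5, Slc25a20, Acsl1, Eci1, Slc27a2, Acot2, Cyp4a10 and Fabp1 were named after their values were seen.

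Not every PPARα target was called lower, and 5 of the 49 tested had a positive fold change, up to 1.53. Hadha and Hadhb, the trifunctional protein of mitochondrial oxidation, had log2 fold changes of -0.05 and -0.08, Acadm, the medium chain dehydrogenase, 0.11, and Cpt1a, the gate of mitochondrial import, -0.34. The liver fatty acid binding protein Fabp1 stood at 3340, 3363 and 3299 TPM in the treated knockout libraries, against 7914, 7372 and 8164 TPM in the treated floxed libraries, and missed the threshold (-1.23 ± 0.30, adjusted p = 0.0972). Ppara itself had 31.0, 34.6 and 35.4 TPM against 40.9, 31.9 and 48.4 TPM, ranges that overlap (adjusted p = 0.875). Of the 12 tested partner receptors on a list of 16, 0 were called, against 1.93% of all tested genes. At an unadjusted p under 0.05, 1 partner was higher and 3 were lower. Hadha, Hadhb, Acadm, Cpt1a and Ppara were chosen after their values were seen.

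**Figure D3:**
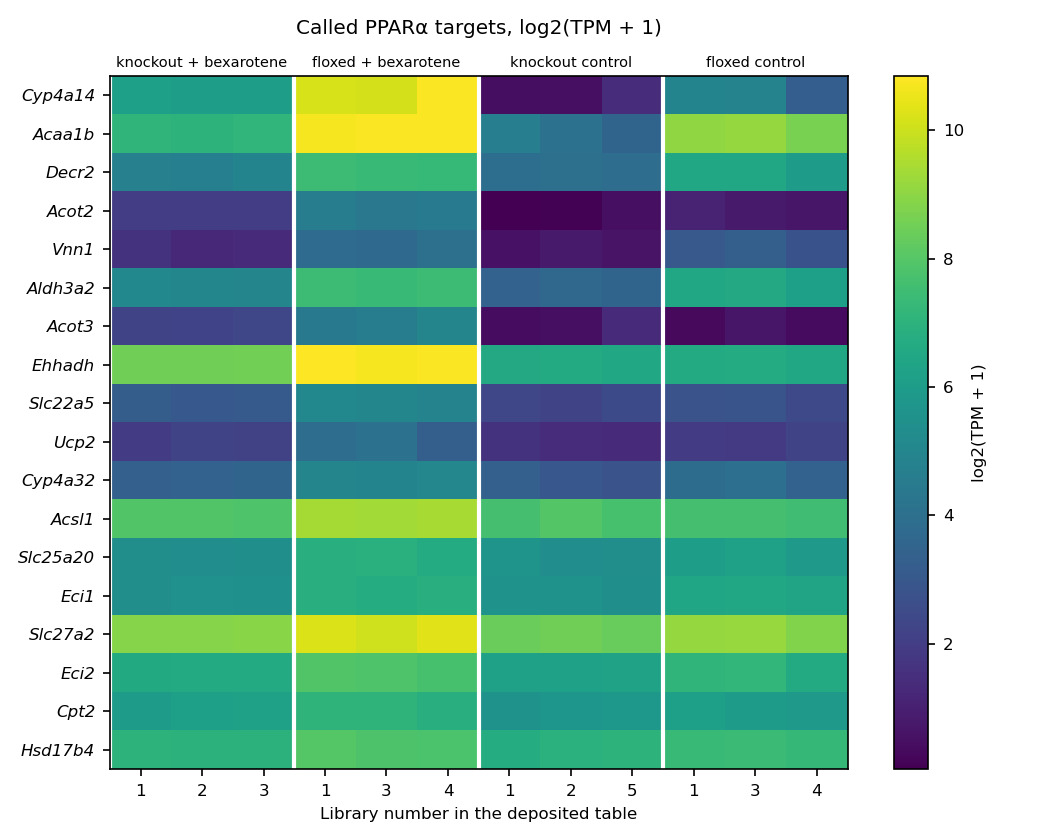
Expression as log2(TPM + 1) of 18 of the 19 PPARα targets that fell, in all 12 libraries, with the treated knockout and treated floxed libraries in the first 6 columns and the knockout and floxed controls in the last 6. Ehhadh and Acsl1 have like levels in both control groups and separate by genotype with bexarotene, while Acaa1b, Decr2 and Aldh3a2 are lower in the knockout in both.

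Lipid droplet genes fell in 4 of 17 tested members, against 1.25% of all tested genes, with 0 higher and a median of -0.62. Fitm1, which partitions triglyceride into droplets, was at 0, 0.36 and 0.08 TPM in the treated knockout libraries and 12.5, 15.3 and 11.8 TPM in the treated floxed libraries (-3.62 ± 0.29, adjusted p = 9.80e-04). Cidec, a droplet fusion protein, was at 0.42, 0.21 and 0.60 TPM against 7.98, 7.69 and 8.67 TPM (-2.69 ± 0.25, adjusted p = 0.00172). Without the drug Cidec averaged 0.42 TPM in knockout and 0.62 TPM in floxed controls, and the difference of the contrasts was called (adjusted p = 0.0368). Hsd17b11, a droplet-bound dehydrogenase, fell by 1.71 ± 0.21 (adjusted p = 0.00598). The fourth call, of the monoglyceride lipase Mgll (-0.98 ± 0.18, adjusted p = 0.0374), was lost without treated floxed 1, 3 or 4 or knockout control 2 (adjusted p up to 0.139). At an unadjusted p under 0.05, 8 members were lower and 0 higher.

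Single genes of triglyceride assembly were called in either direction. Lpin1, a phosphatidate phosphatase that also acts as a transcriptional coactivator, stood at 262.8, 261.8 and 265.4 TPM in the treated knockout libraries, against 34.8, 30.0 and 25.8 TPM in the treated floxed libraries (3.09 ± 0.24, adjusted p = 9.80e-04). Without the drug it averaged 73.1 TPM in knockout controls and 52.8 TPM in floxed controls, and the difference of the contrasts was called (adjusted p = 0.0223). Gpat3 and Gpat4, acyltransferases of the step that starts triglyceride synthesis, went the other way. Gpat3 was at 0.57, 0.44 and 0.43 TPM against 8.14, 8.01 and 7.41 TPM (-2.58 ± 0.19, adjusted p = 8.54e-04). Gpat4 was at 23.0, 21.1 and 25.3 TPM against 112.0, 118.8 and 97.7 TPM (-2.19 ± 0.27, adjusted p = 0.00619). Both Gpat genes were chosen after their values were seen. Other genes of the pathway were not called, with log2 fold changes of -0.18 for Gpam, -0.79 for Agpat2, -0.01 for Lpin2, 0.03 for Lpin3, -0.53 for Dgat1, 0.60 for Dgat2 and -1.22 for Mogat1.

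Of 31 tested fatty acid synthesis genes, 2 rose and 2 fell, against 0.681% and 1.25% of all tested genes, with a median of -0.05. Thrsp, a thyroid hormone responsive regulator of lipogenesis, stood at 347.0, 331.1 and 347.1 TPM in the treated knockout libraries, against 1490, 1508 and 1463 TPM in the treated floxed libraries (-2.12 ± 0.14, adjusted p = 5.43e-04). Without the drug the gap was wider, at 15.1 TPM in knockout controls and 437.0 TPM in floxed controls, and the difference of the contrasts was called (adjusted p = 0.00190). Srebf1, the master regulator of lipogenesis and an LXR target, fell by 2.16 ± 0.39 (adjusted p = 0.0329). Scd2, a fatty acid desaturase, was called higher (3.38 ± 0.67, adjusted p = 0.0488) at 13.9, 13.4 and 13.9 TPM against 0.29, 0.22 and 0.79 TPM. The calls of Srebf1 and Scd2 were each lost without floxed control 4 or treated floxed 1, 3 or 4, and that of Scd2 also without knockout control 2 (adjusted p up to 0.0843 and 0.140). Scd1, the main hepatic desaturase, had 6801, 6738 and 6814 TPM against 2068, 1986 and 3589 TPM, groups that did not overlap but missed the threshold (1.47 ± 0.44, adjusted p = 0.187). Without the drug Scd1 had the opposite sign, at 329.7 TPM in knockout controls and 998.8 TPM in floxed controls (-1.67). Scd1 was chosen after its values were seen.

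Dio1, the deiodinase that activates thyroid hormone, is itself a thyroid hormone target and stood at 1.32, 2.96 and 1.44 TPM in the treated knockout libraries, against 97.8, 90.2 and 29.1 TPM in the treated floxed libraries (-4.48 ± 0.66, adjusted p = 0.0132). It was also lower without the drug, at 6.77 TPM in knockout controls and 97.1 TPM in floxed controls. Of 12 tested thyroid hormone responsive genes, 3 fell and 0 rose, the third being the glycerol phosphate dehydrogenase Gpd2 (-1.07 ± 0.17, adjusted p = 0.0169), whose call was lost without treated floxed 1, 3 or 4 (adjusted p up to 0.0723). Over all tested genes 1.25% were called lower and 0.681% higher. At an unadjusted p under 0.05, 3 members of this list were higher and 4 lower.

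**Figure D4:**
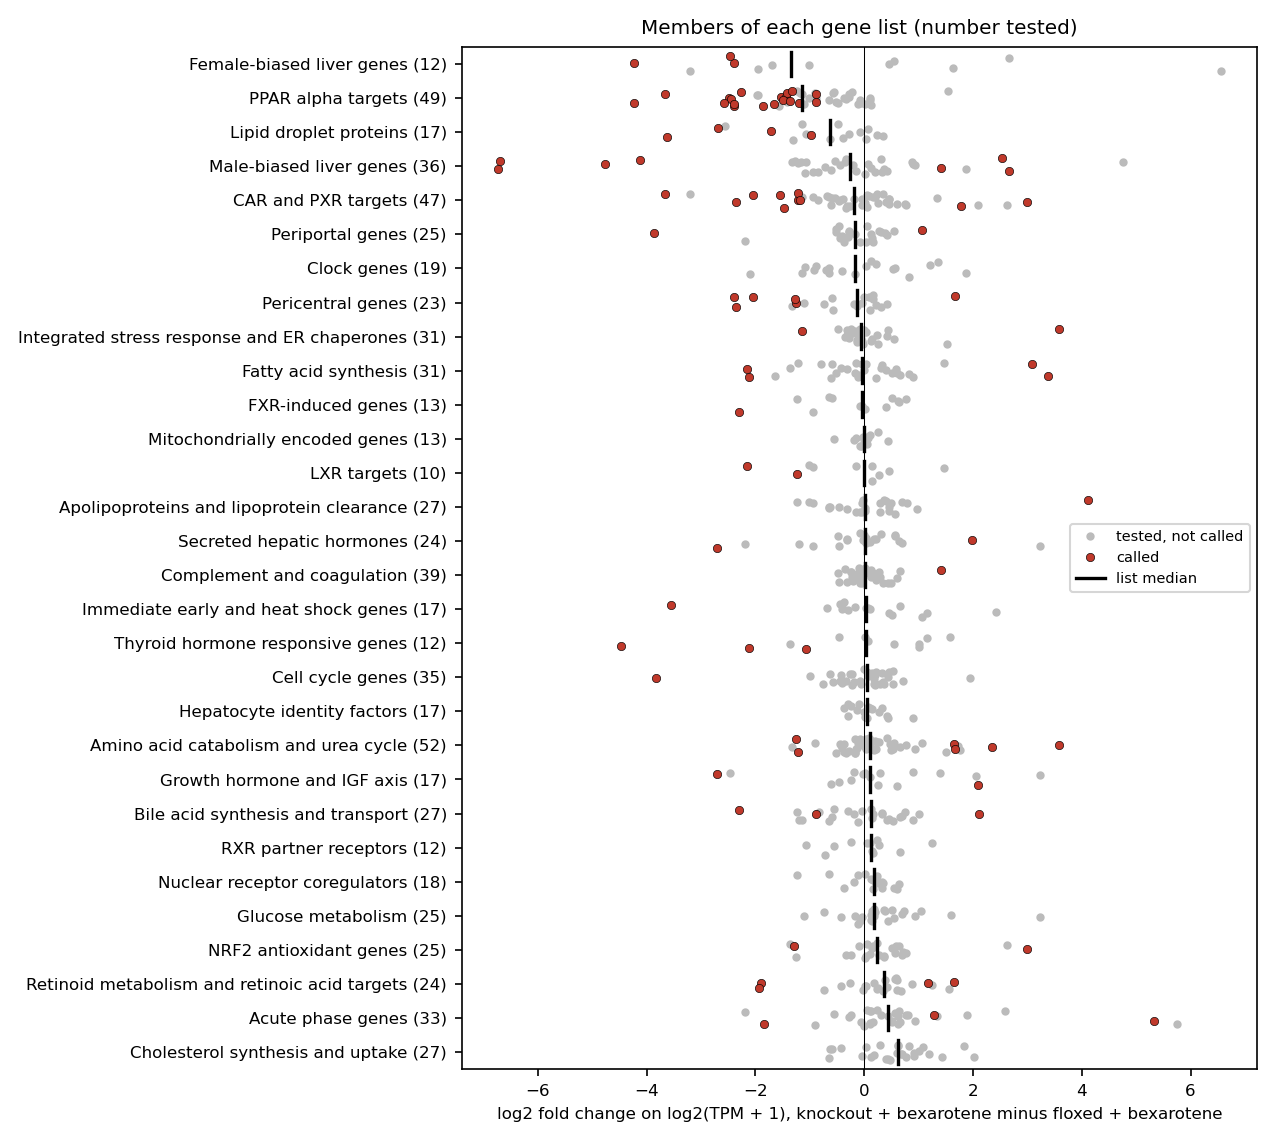
Log2 fold changes (treated knockout minus treated floxed, log2(TPM + 1)) of the tested members of each gene list, 1 point per gene, with called genes in red and a bar at the list's median. PPARα targets have 19 called members, all to the left of 0, whereas the cholesterol list has a median of 0.62 with 0 called.

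Targets of the drug-sensing receptors CAR and PXR changed in 10 of 47 tested members, 2 higher and 8 lower, against 0.681% and 1.25% of all tested genes, with a median of -0.18. Without the drug 1 was called higher and 14 lower, against 1.83% and 1.92%. Cyp2b10, the classical CAR target, stood at 47.3, 45.7 and 49.8 TPM in the treated knockout libraries, against 700.6, 686.9 and 489.7 TPM in the treated floxed libraries (-3.67 ± 0.54, adjusted p = 0.0132), a call lost without treated floxed 1 (adjusted p = 0.0501). Ugt1a1, which conjugates bilirubin, fell by 1.22 ± 0.14 (adjusted p = 0.00403). Cyp3a11, the classical PXR target, had 1549, 1578 and 1529 TPM against 2270, 1972 and 2549 TPM and missed the threshold (-0.54 ± 0.33, adjusted p = 0.646). Cyp3a11 was chosen after its values were seen.

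Cyp2c29 and Cyp2c37 fell less with the drug than without it. Cyp2c29 stood at 1289, 1253 and 1307 TPM in the treated knockout libraries, against 2935, 3131 and 2929 TPM in the treated floxed libraries (-1.22 ± 0.17, adjusted p = 0.00998). Without the drug it averaged 75.2 TPM in knockout controls and 2158 TPM in floxed controls (-4.83), and the difference of the contrasts was 3.61 ± 0.21 (adjusted p = 0.00122). Cyp2c37 stood at 34.6, 34.5 and 36.7 TPM, against 189.9, 182.4 and 184.3 TPM (-2.36 ± 0.23, adjusted p = 0.00200), with controls at 3.74 TPM in knockout and 222.5 TPM in floxed mice. In both genes the treated knockout lay well above the knockout controls and below the treated floxed group. Single Cyp2c values are uncertain because the copies are near-identical.

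In the CAR and PXR list 21 tested members had a positive fold change and 26 a negative one. Gsta1, an alpha class glutathione transferase, was among those with a positive one. It stood at 125.4, 123.4 and 127.1 TPM in the treated knockout libraries, against 14.3, 13.2 and 17.8 TPM in the treated floxed libraries (2.99 ± 0.28, adjusted p = 0.00158). Controls had 5.20 TPM in knockout and 8.41 TPM in floxed mice, and the difference of the contrasts was called (adjusted p = 0.0118). Its near-copy Gsta2 had 158.2, 162.8 and 162.2 TPM against 206.8, 193.8 and 205.9 TPM and was not called, so reads split between the copies could alter both values. Slco1a4, an organic anion uptake carrier, rose by 1.78 ± 0.29 (adjusted p = 0.0185), a call lost without treated floxed 3 or 4 (adjusted p up to 0.0658). Gsta2 was chosen after its values were seen, as was Slco1a4. Of 25 tested antioxidant genes under NRF2 control, 1 rose, Gsta1, and 1 fell, the carbonyl reductase Cbr1 (-1.28 ± 0.21, adjusted p = 0.0188), lost without treated floxed 1 or 3 (adjusted p up to 0.0748). The shares over all tested genes were 0.681% higher and 1.25% lower.

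The major urinary protein genes, a cluster of near-identical copies on chromosome 4 that is expressed mostly in males, split within the family. Of 20 tested members 4 fell and 1 rose, against 1.25% and 0.681% of all tested genes. The other 15 were not called, and the median was -0.9. Mup17 stood at 4.44, 5.27 and 6.80 TPM in the treated knockout libraries, against 1016, 996.7 and 328.7 TPM in the treated floxed libraries (-6.74 ± 0.70, adjusted p = 0.00280). Mup19 fell by 6.69 ± 0.70 (adjusted p = 0.00295) and Mup15 had a log2 fold change of -4.76 ± 0.63 (adjusted p = 0.00888). Mup8 also fell (-2.80 ± 0.44, adjusted p = 0.0174), a call lost without treated floxed 1 or 3 (adjusted p up to 0.0554). Mup21 rose, at 1395, 1440 and 1264 TPM against 245.4, 190.2 and 275.7 TPM (2.54 ± 0.33, adjusted p = 0.00888). Mup9 had 2760, 2861 and 2897 TPM against 2382, 2293 and 1741 TPM and was not called (adjusted p = 0.737). Summed over the 22 genes in the table, the family took 7.96%, 8% and 7.69% of all TPM in the treated knockout and 11.65%, 10.76% and 7.61% in the treated floxed libraries, ranges that overlap through treated floxed 4. A sum does not depend on how reads are split among copies, whereas the single values do. Mup8, Mup9 and Mup21 were chosen after their values were seen.

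The 250 bases before the start sites are shown for 4 members, to set a near-identical pair of genes that fell beside a near-identical one that was not called and a more distant one that rose. The sequences are those of RefSeq on GRCm38.p6, from 5′ to 3′ on the minus strand of chromosome 4, and capitals mark AGGNCA on either strand, the core motif that RXR and its partners bind. Mup17 and Mup19 fell, Mup9 was not called and Mup21 rose. The windows are chr4:61595833-61596082 for Mup17, chr4:61782225-61782474 for Mup19, chr4:60421953-60422202 for Mup9 and chr4:62150842-62151091 for Mup21.
Mup17: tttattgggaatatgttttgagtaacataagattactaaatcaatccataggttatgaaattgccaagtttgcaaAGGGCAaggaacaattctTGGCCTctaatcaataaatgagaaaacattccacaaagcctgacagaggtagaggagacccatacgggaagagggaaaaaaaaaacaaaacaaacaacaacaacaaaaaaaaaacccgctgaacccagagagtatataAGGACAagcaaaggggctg
Mup19: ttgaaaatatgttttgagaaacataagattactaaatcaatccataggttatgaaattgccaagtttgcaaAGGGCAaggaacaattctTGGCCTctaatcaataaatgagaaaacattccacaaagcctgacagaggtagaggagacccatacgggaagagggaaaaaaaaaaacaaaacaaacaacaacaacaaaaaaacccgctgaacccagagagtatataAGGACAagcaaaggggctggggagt
Mup9: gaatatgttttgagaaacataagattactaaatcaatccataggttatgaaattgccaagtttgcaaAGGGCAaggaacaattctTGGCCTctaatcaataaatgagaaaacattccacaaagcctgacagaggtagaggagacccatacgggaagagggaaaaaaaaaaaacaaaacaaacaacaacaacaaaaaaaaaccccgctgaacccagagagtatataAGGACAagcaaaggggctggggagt
Mup21: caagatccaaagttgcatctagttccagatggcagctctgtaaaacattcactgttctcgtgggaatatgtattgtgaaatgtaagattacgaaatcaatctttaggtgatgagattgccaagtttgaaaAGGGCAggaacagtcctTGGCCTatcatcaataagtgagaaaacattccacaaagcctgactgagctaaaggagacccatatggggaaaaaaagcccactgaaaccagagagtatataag
The window of Mup9 is 98.4% identical to that of Mup17 and 98% identical to that of Mup19, and all 3 hold the motif 3 times. The window of Mup21 is 72.1% to 72.7% identical to the others and holds it 2 times. It ends just after the tatata stretch, where the other windows hold their last match. The counts of 2 and 3 thus do not cover the same stretch and show no difference in sequence there. The near-identical stretches of Mup17, Mup19 and Mup9 stand beside levels that fell in Mup17 and Mup19 and did not in Mup9. In windows of 250 bases before to 50 after the start, AGGNCA on either strand was found in 71.2% of the genes that fell with a RefSeq window (74 of 104) and 73.5% of those that rose (36 of 49). The share was 57.8% over all tested genes and 60.5% over all RefSeq genes. A gene counts if any of its windows holds a match, so genes with more windows match more easily. Counted by window, the shares were 59.1% for genes that fell and 66.2% for those that rose. Over all tested genes 53.1% of windows matched, and over all RefSeq genes 57.2%. Whether these shares differ was not tested. The direct repeat with 1 spacer base, AGGNCANAGGNCA, to which PPARα pairs bind, was in 0 of the 104 and 1 of the 49, against 0.389% of tested genes. Each repeat match contains 2 core matches. A match is only a run of letters, and a window without one says nothing of binding elsewhere.

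**Figure D5:**
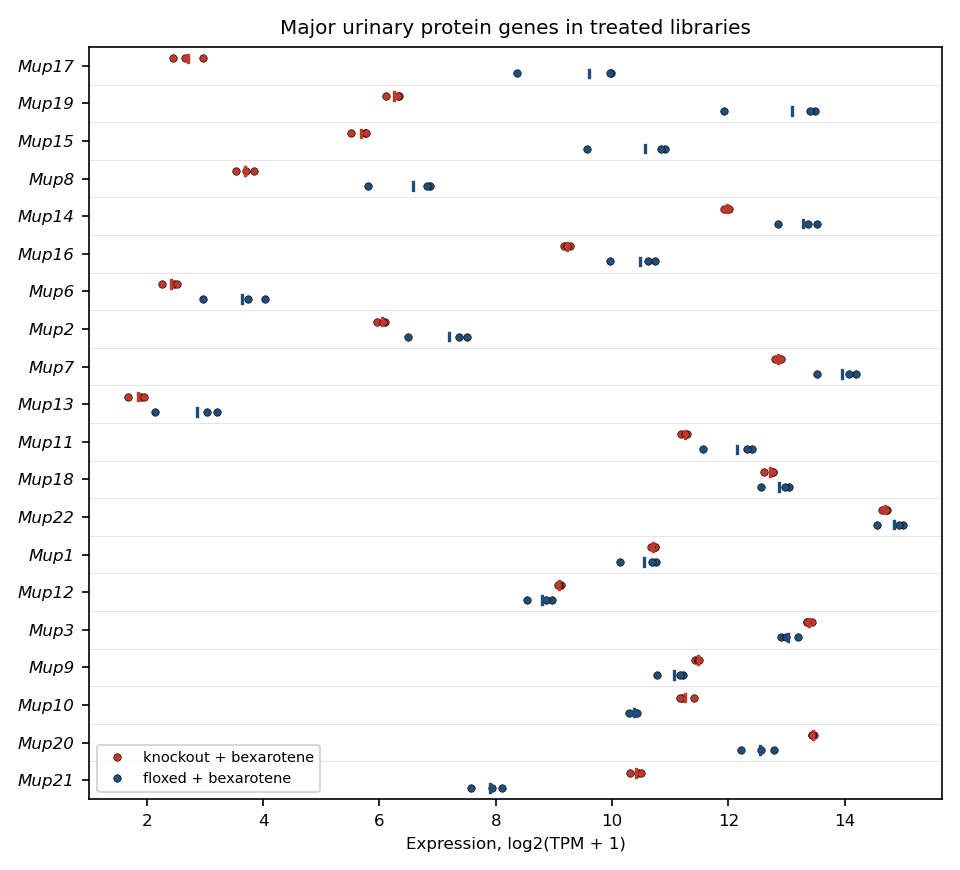
Expression as log2(TPM + 1) of the 20 tested Mup genes in the treated libraries, 1 point per library and a bar at the log2 of the group's mean TPM + 1, ordered by fold change. Mup17, Mup19, Mup15 and Mup8 lie lower in the treated knockout, and Mup21 lies higher. The other 15 were not called, although the groups also lie apart in many of them. Mup2 and Mup20 are examples, with log2 fold changes of -1.09 and 0.93.

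Sex-biased genes were called in both directions. Of 36 tested male-biased genes, many of them Mup genes, 3 rose and 4 fell, and of 12 tested female-biased genes 3 fell and 0 rose, against 0.681% of all tested genes higher and 1.25% lower. Those 3 were Cyp4a14, the thioesterase Acot3 and Cyp2c69, of which Acot3 (-2.39 ± 0.37, adjusted p = 0.0174) lost its call without treated floxed 3 (adjusted p = 0.0543) and Cyp2c69 (-2.48 ± 0.45, adjusted p = 0.0332) without floxed control 4, treated floxed 1 or 3 or knockout control 2 (adjusted p up to 0.0707). Of 17 tested genes of the growth hormone axis 1 rose and 1 fell. Igfbp2, which binds insulin-like growth factors, stood at 79.5, 78.5 and 87.4 TPM in the treated knockout libraries, against 488.8, 506.2 and 641.1 TPM in the treated floxed libraries (-2.71 ± 0.35, adjusted p = 0.00799). Socs2, a feedback inhibitor of growth hormone signalling, had 4.58, 4.84 and 5.01 TPM against 0.33, 0.29 and 0.49 TPM and rose by 2.09 ± 0.36 (adjusted p = 0.0266), a call lost without treated floxed 1, 3 or 4 (adjusted p up to 0.0863). Igf1 and the growth hormone receptor Ghr had log2 fold changes of -0.46 (adjusted p = 0.146) and 0.01. Serpina12, the secreted serpin vaspin, rose at 18.2, 17.7 and 17.5 TPM against 3.42, 4.62 and 3.30 TPM (1.99 ± 0.27, adjusted p = 0.00919). Igf1 and Ghr were chosen after their values were seen.

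Amino acid enzymes changed in 6 of 52 tested members, 4 higher and 2 lower, against 0.681% and 1.25% of all tested genes, with a median of 0.10. Asns, which makes asparagine and is a target of the stress factor ATF4, stood at 27.5, 27.7 and 28.1 TPM in the treated knockout libraries, against 0.50, 2.09 and 1.99 TPM in the treated floxed libraries (3.58 ± 0.45, adjusted p = 0.00690). It was also higher without the drug, at 40.6 TPM in knockout controls and 3.61 TPM in floxed controls. Of 31 tested genes of the integrated stress response and ER chaperones 1 rose, Asns, and 1 fell, Creld2. Csad, which commits cysteine to taurine synthesis, stood at 84.3, 81.1 and 86.7 TPM, against 14.8, 14.2 and 18.6 TPM (2.34 ± 0.27, adjusted p = 0.00503). The aspartate aminotransferase Got1 rose by 1.65 ± 0.25 (adjusted p = 0.0139). The ornithine aminotransferase Oat rose by 1.67 ± 0.26 (adjusted p = 0.0152), lost without treated floxed 1 or 3 (adjusted p up to 0.0591). Aass, of lysine breakdown, fell by 1.22 ± 0.20 (adjusted p = 0.0191), lost without treated floxed 1 (adjusted p = 0.0733). The proline oxidase Prodh fell by 1.26 ± 0.20 (adjusted p = 0.0178), lost without treated floxed 1 or 3 (adjusted p up to 0.0719). The call of Creld2 (-1.14 ± 0.21, adjusted p = 0.0367) was lost without floxed control 4, treated floxed 1 or 3 or knockout control 2 (adjusted p up to 0.132).

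Of 27 tested genes of bile acid synthesis and transport 1 rose and 2 fell, against 0.681% and 1.25% of all tested genes. Slc51b, a subunit of the basolateral bile acid exporter and an FXR target, was at 0, 0.29 and 0 TPM in the treated knockout libraries and 4.26, 4.38 and 4.64 TPM in the treated floxed libraries (-2.31 ± 0.20, adjusted p = 0.00122). Cyp8b1, the hydroxylase that sets the share of cholic acid, had 197.0, 189.2 and 201.6 TPM against 32.0, 38.5 and 70.8 TPM. It was called higher (2.12 ± 0.38, adjusted p = 0.0320), but not without floxed control 4, treated floxed 1 or 3 or knockout control 2 (adjusted p up to 0.102). Cyp7a1, the rate-limiting enzyme of bile acid synthesis, had 48.7, 30.4 and 26.8 TPM against 24.4, 26.3 and 7.55 TPM and was not called (adjusted p = 0.771). The FXR target Nr0b2, a repressor of Cyp7a1, had 22.2, 18.02 and 20.8 TPM against 39.6, 44.8 and 66.4 TPM and was not called either (adjusted p = 0.281). Cyp7a1 was chosen after its values were seen.

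Retinoid genes changed in 4 of 24 tested members, 2 in each direction, against 0.681% of all tested genes higher and 1.25% lower. Aox3, an aldehyde oxidase that can make retinoic acid, stood at 39.3, 39.7 and 40.8 TPM in the treated knockout libraries, against 154.1, 139.8 and 174.2 TPM in the treated floxed libraries (-1.94 ± 0.18, adjusted p = 0.00162). Retsat, which saturates retinol, stood at 92.0, 90.8 and 94.9 TPM, against 311.5, 337.9 and 405.2 TPM (-1.91 ± 0.28, adjusted p = 0.0137). Ttr, the carrier of thyroid hormone and of retinol binding protein, rose by 1.17 ± 0.19 (adjusted p = 0.0184), lost without treated floxed 1 (adjusted p = 0.0842). Cyp26b1, which degrades retinoic acid, rose by 1.66 ± 0.25 (adjusted p = 0.0152) at 2.45, 2.35 and 2.59 TPM against 0.04, 0.02 and 0.25 TPM, a call lost without treated floxed 1 or 3 (adjusted p up to 0.0562). The related Cyp26a1 had 330.0, 321.6 and 324.5 TPM against 154.5, 158.6 and 224.4 TPM and missed the threshold (0.88 ± 0.54, adjusted p = 0.638). Its controls averaged 11.1 TPM in knockout and 4.60 TPM in floxed mice. Cyp26a1 was chosen after its values were seen.

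Ccnd1, cyclin D1, which drives entry into the cell cycle, was the single called member of 35 tested cell cycle genes. It stood at 2.05, 2.02 and 2.06 TPM in the treated knockout libraries, against 42.5, 43.7 and 41.3 TPM in the treated floxed libraries (-3.84 ± 0.22, adjusted p = 3.59e-04). Controls averaged 0.70 TPM in knockout and 1.84 TPM in floxed mice, so the treated floxed group stood above the other 3 groups. The genotype differences with and without bexarotene differed (adjusted p = 0.00846). The other cell cycle genes had 2 higher and 1 lower at an unadjusted p under 0.05, and the list's median was 0.05. Among all tested genes 1.25% were called lower.

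Cholesterol synthesis genes had mostly positive fold changes and no call. Of 27 tested members 22 had a positive fold change, with a median of 0.62, and for 18 all treated knockout libraries lay above all treated floxed libraries, against 23.2% of tested genes. None was called by limma after adjustment, against 1.93% of all tested genes, and 9 were higher and 1 lower at an unadjusted p under 0.05. Sqle, the epoxidase after squalene, had 63.8, 64.5 and 66.0 TPM in the treated knockout libraries and 12.7, 11.7 and 23.5 TPM in the treated floxed libraries (2.02 ± 0.45, adjusted p = 0.0730). Fdps, farnesyl diphosphate synthase, had 522.0, 527.8 and 543.7 TPM against 229.3, 277.6 and 291.5 TPM (1.00 ± 0.37, adjusted p = 0.315). Sqle was chosen after its values were seen.

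The acute phase list had 2 of 33 tested members called higher and 1 lower, against 0.681% and 1.25% of all tested genes, with a median of 0.44. They were Mt1, already described, Orm2, an acid glycoprotein (1.29 ± 0.24, adjusted p = 0.0362), and Il1rn, the interleukin 1 receptor antagonist, which was lower (-1.84 ± 0.36, adjusted p = 0.0427). Without treated floxed 4, 0 members of this list were called. The calls of Mt1, Orm2 and Il1rn were each also lost without floxed control 4, treated floxed 1 or treated floxed 3. The summed macrophage markers were 73.0 to 83.2 TPM in the treated knockout and 20.5 to 73.7 TPM in the treated floxed libraries, and their part was not tested. Without the drug 10 acute phase genes were called higher and 0 lower, against 1.83% and 1.92% of all tested genes. Of 39 complement and coagulation genes 1 changed, C6 of the membrane attack complex, at 222.8, 220.6 and 223.8 TPM against 78.4, 84.5 and 85.4 TPM (1.42 ± 0.15, adjusted p = 0.00317). C6 was higher by a like amount without the drug (1.50).

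No member was called by limma among 25 glucose metabolism genes, 17 hepatocyte identity factors, 18 nuclear receptor coregulators, 19 clock genes and 13 mitochondrially encoded genes. At an unadjusted p under 0.05 the glucose list had 7 higher and 0 lower, the clock list 0 higher and 4 lower, the coregulators 1 higher and 2 lower, the mitochondrial list 0 higher and 1 lower and the identity factors 0. Hnf4a, a core regulator of hepatocyte identity, had 163.5, 162.7 and 167.4 TPM in the treated knockout libraries and 129.1, 132.4 and 104.9 TPM in the treated floxed libraries (0.43 ± 0.21, adjusted p = 0.502). Of 23 pericentral genes 1 rose and 5 fell, against 0.681% and 1.25% of all tested genes. Aldh3a2 and Cyp2c37 were among those that fell. Of 25 periportal genes 1 rose and Mfsd2a fell. The periportal rise, of Etnppl (1.07 ± 0.20, adjusted p = 0.0361), was lost without floxed control 4, treated floxed 1, 3 or 4 or knockout control 2 (adjusted p up to 0.121).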

How the data were processed

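Messenger RNA of 12 hepatocyte libraries was sequenced. Per the labels' protocols, 1 µg of RNA from a TRIzol extraction with DNase I digestion went into the Illumina stranded mRNA preparation. Per the submitters' processing notes, fastp, HISAT2 and StringTie were used, with no versions stated. Whether counting used strand, and the genome build, are not stated there. The authors deposited 1 table of TPM for 26748 gene identifiers, 21810 of which were given a symbol. No column was left unused. Columns carry other numbers than the sample titles and were tied to groups only.

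Libraries of a group whose spread beyond counting noise was under 0.1 log2 were averaged, which gave 9 samples. Testing covered the 11018 genes, 10490 with a symbol, that reached 1 TPM in 3 or more libraries. Linear models on log2(TPM + 1) held all 4 groups (limma 3.58.1, R 4.3.3, eBayes with a trend, 5 residual and 3.22 prior degrees of freedom). Fold changes are on that scale and understate changes of low genes. Benjamini-Hochberg adjustment ran over every tested gene, and called, rose or fell means an adjusted p under 0.05. The fit was tested on simulated data with 100 genes changed by 1 log2 unit and 100 by 2. It recovered 38 and 86 of them, with 6 false calls among 130. A gene that is not called can thus still differ. TPM gives no depth, so the precision of low values is unknown. Promoters came from RefSeq on GRCm38.p6 and were aligned with Biopython 1.88.

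The 39 gene lists, the members and the tests were chosen with earlier results of these data known. Named genes are the RXR genes, the 12 largest called rises and falls with at least 5 TPM in the higher group and libraries that do not overlap, and in each list up to 4 called members by adjusted p, or, with none called, the 2 of highest TPM. Not all are printed, a few genes are not reported here, and some lists are given only as counts. Alternatives were other pseudocounts, filters, scalings and samples in the fit, the 12 libraries kept separate, and each library left out.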

Additional observations from a re-analysis of the deposited data

Results flagged for a closer look

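For 12 of the named genes the genotype difference with bexarotene differed from that without it, by limma's test of the difference between the 2 contrasts with Benjamini-Hochberg adjustment over all 11018 genes. Values are the difference with the drug minus that without it, on the log2(TPM + 1) scale with SE. In 6 genes the knockout was lower with the drug, against a smaller fall or a small positive value without it: Ccnd1 (-3.10 ± 0.28, adjusted p = 0.00846), Cidec (-2.48 ± 0.32, adjusted p = 0.0368), Ehhadh (-2.25 ± 0.18, adjusted p = 0.00508), Gpat3 (-1.96 ± 0.24, adjusted p = 0.0242), Aass (-1.76 ± 0.25, adjusted p = 0.0492) and Acsl1 (-1.68 ± 0.20, adjusted p = 0.0228). In 4 genes the knockout was lower under both conditions, and by less with the drug: Cyp2c29 (3.61 ± 0.21, adjusted p = 0.00122), Cyp2c37 (3.16 ± 0.29, adjusted p = 0.00846), Thrsp (2.65 ± 0.18, adjusted p = 0.0019) and Ces1g (1.85 ± 0.25, adjusted p = 0.0416), a carboxylesterase. In 2 genes the knockout was higher with the drug: Gsta1 (3.56 ± 0.35, adjusted p = 0.0118) and Lpin1 (2.63 ± 0.30, adjusted p = 0.0223). All rest on 1 treated knockout sample, to which the tests lend the spread of the other groups, and the count of genes called for the difference was 6 to 210 on leaving out single libraries. The falls of Ces1g and Aass with the drug lost their calls without treated floxed 1, and that of Ces1g also without floxed control 4, treated floxed 3 or 4 or knockout control 2 (adjusted p up to 0.121 for Ces1g and 0.0733 for Aass). Aass, Ces1g, Acsl1 and Gpat3 were chosen after their values were seen.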

How the results depend on the processing

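The number of genes called between treated knockout and treated floxed hepatocytes was 213 as reported, 1589 with the 12 libraries kept as separate samples and 1041 with no filter on low values, and 103 (without treated floxed 1) to 435 (without knockout control 5) with single libraries left out. Without the drug it was 414, with 1302 and 231 under the same 2 settings and 101 (without floxed control 4) to 761 (without knockout control 5). For the difference of the contrasts it was 22, with 651 and 689, and 6 (without treated floxed 1) to 210 (without knockout control 5). The share of calls that were higher was 35.2% as reported, 50% with 12 libraries, 81.9% with no filter and 44.1% with only the treated groups in the fit. Of the 83 named genes called, 45 kept the call under every alternative run, 52 with every single library left out, and 0 changed direction. Without a call, Nr1i3 was at -0.0182 with equal medians, and Rxrb at -0.0139 with quantile normalization, -0.0464 with equal medians and from -0.0298 (without treated knockout 1) to 0.0553 (without treated knockout 2) with single libraries left out, against 0.04 and 0.02 as reported. PPARα targets called were 13 to 26 with single libraries left out and 36 with 12 libraries, all lower. With only the treated groups in the fit 17 named genes lost their call, among them Dio1, Fkbp5, Got1 and Scara5, and with a pseudocount of 0.1 it was 9, among them Cyp4a14, Acot2 and Akr1b7; the causes were not tested. No paired analysis was possible because the columns carry other numbers than the titles and the treated knockout is 1 sample, so the replicate block was not run.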

Other observations

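Several called genes have not been described so far, and apart from Nat8f7 and Cyp2d41-ps they were chosen after their values were seen. Kyat3, a kynurenine aminotransferase, stood at 25.5, 26.0 and 24.1 TPM in the treated knockout libraries, against 197.5, 206.9 and 167.7 TPM in the treated floxed libraries (-2.87 ± 0.19, adjusted p = 5.43e-04). The aldo-keto reductase Akr1b7 stood at 5.51, 4.63 and 4.31 TPM, against 15.5, 15.9 and 16.3 TPM (-1.54 ± 0.22, adjusted p = 0.0113), and averaged 0.14 TPM in knockout and 0.23 TPM in floxed controls. Both were lower in every treated knockout library. Cyp2d40, a cytochrome P450, stood at 347.1, 324.4 and 340.7 TPM, against 73.6, 76.2 and 69.6 TPM (2.19 ± 0.17, adjusted p = 9.80e-04), and the related pseudogene Cyp2d41-ps at 12.2, 13.3 and 15.2 TPM, against 0.68, 1.26 and 0.95 TPM (2.90 ± 0.32, adjusted p = 0.00403). Reads of these copies can be shared. Nat8f7, of a family of N-acetyltransferases, stood at 7.23, 6.99 and 5.26 TPM, against 0.03, 0.09 and 0.27 TPM (2.73 ± 0.25, adjusted p = 0.00158).

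Fkbp5, an immunophilin induced by glucocorticoids, stood at 160.1, 162.5 and 162.5 TPM in the treated knockout libraries, against 48.1, 44.3 and 29.8 TPM in the treated floxed libraries (1.99 ± 0.30, adjusted p = 0.0146). Scara5, a ferritin receptor, stood at 23.4, 23.4 and 23.7 TPM, against 3.89, 3.47 and 1.70 TPM (2.65 ± 0.40, adjusted p = 0.0152). In both genes treated floxed 4 was the lowest of the treated floxed libraries.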
